A study of Mus musculus with 68 samples.

Results

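The oocyte Fbxw gene cluster is a run of F-box and WD40-repeat genes on mouse chromosome 9. It was followed here through 10 genes chosen by name, Fbxw15, Fbxw16, Fbxw18, Fbxw19, Fbxw20, Fbxw21, Fbxw22, Fbxw24, Fbxw26 and Fbxw28, out of 24421 reference gene symbols in the deposited tables. All 10 were found in every one of the 68 libraries. Somatic cell nuclear transfer (SCNT) embryos had been built by injecting cumulus cell nuclei into enucleated MII oocytes of BDF1 mice, the B6D2F1 hybrid of C57BL/6j females and DBA/2 males, and activating them with strontium chloride in the presence of cytochalasin B. Smart-seq2 libraries of polyadenylated RNA were made from 10 blastomeres each. They covered the donor cumulus cells (CC, n = 3) and SCNT embryos at 6 and 14 h post activation (hpa), early 2-cell (E2C), late 2-cell (L2C), 8-cell (8C) and morula stages (n = 6 each), and blastocysts separated into trophectoderm (TE, n = 6) and inner cell mass (ICM, n = 6), with n = 5 at the 4-cell stage (4C). In addition, 12 libraries came from fertilized embryos of C57BL/6j parents that had received a control, Max or Mcrs1 morpholino (MO) as zygotes and were taken as blastocyst ICM or TE (n = 2 each). No morpholino was used in the CC and SCNT libraries, and the control libraries of the fertilized set carried a random-sequence morpholino. The study describes its SCNT and morpholino samples as biological replicates, and neither it nor the labels say how the libraries map to separate collections, so p-values measure the spread between these libraries.

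F-box proteins are the substrate-binding subunits of SCF ubiquitin ligases, in which the F-box binds SKP1, SKP1 binds the cullin CUL1, and RBX1 recruits the ubiquitin-conjugating enzyme. WD40 repeats fold into a propeller that usually holds the substrate. The rodent chromosome 9 genes are known mainly from oocytes, where maternal RNAs are stored during growth and cleared over the first cleavages, while the embryonic genome takes over.

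The 10 genes all lay on the minus strand of chromosome 9 (mm10), from Fbxw21 at chr9:109139454-109162022 to Fbxw26 at chr9:109717566-109746089, a span of 607 kb. From the lowest coordinate upwards the order was Fbxw21, Fbxw20, Fbxw28, Fbxw22, Fbxw16, Fbxw19, Fbxw15, Fbxw24, Fbxw18 and Fbxw26. The tables held 2 further Fbxw genes inside that span, Fbxw13 and Fbxw14, and no reference gene of another family. Fbxw27, at chr9:109766045-109790650, lies just past Fbxw26 and was added to the description after its values had been seen. The longest protein-coding transcripts of the 10 genes in GENCODE vM21 were 78.4% to 93.3% identical in the 45 pairs (median 84.3%), with Fbxw22 and Fbxw28 the most alike pair. Of 150-base windows, the length of 1 read, 9 of the 10 transcripts shared none with another Fbxw gene of the cluster. Fbxw28 shared 36.0% of its windows, 550 of 1529, with Fbxw14, so reads of this pair may have been divided between them and the level of Fbxw28 is uncertain. Its deposited coverage was also 0.41 (median over 35 libraries) of the value that its FPKM would give for the other genes, so its level against theirs was read with caution.

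The upstream sequences are shown for the most abundant of the 10 genes, Fbxw24 and Fbxw28, and for Fbxw18 and Fbxw26, which moved in opposite directions between 6 and 14 hpa. The 250 bases before the RefSeq start are printed 5′ to 3′ on the gene's strand in the GRCm38.p6 build, and capitals mark the E-box sequence CAGCTG, which reads the same on both strands.
Fbxw24, chr9:109626060-109626309, minus strand: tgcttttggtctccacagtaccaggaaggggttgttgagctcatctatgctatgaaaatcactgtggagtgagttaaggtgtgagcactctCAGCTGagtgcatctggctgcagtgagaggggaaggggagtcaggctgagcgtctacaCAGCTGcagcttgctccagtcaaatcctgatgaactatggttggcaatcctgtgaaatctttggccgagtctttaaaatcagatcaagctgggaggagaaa
Fbxw28, chr9:109339660-109339909, minus strand: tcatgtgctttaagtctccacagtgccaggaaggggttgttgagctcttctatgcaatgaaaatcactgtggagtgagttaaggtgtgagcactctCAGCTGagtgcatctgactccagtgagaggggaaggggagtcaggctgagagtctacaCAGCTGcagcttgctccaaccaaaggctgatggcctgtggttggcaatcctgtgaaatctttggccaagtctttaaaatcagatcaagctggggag
Fbxw18, chr9:109702701-109702950, minus strand: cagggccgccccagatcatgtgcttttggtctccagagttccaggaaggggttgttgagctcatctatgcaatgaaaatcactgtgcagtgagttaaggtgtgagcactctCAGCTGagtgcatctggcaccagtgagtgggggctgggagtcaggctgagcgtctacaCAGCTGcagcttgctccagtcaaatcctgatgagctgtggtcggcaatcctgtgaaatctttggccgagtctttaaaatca
Fbxw26, chr9:109746090-109746339, minus strand: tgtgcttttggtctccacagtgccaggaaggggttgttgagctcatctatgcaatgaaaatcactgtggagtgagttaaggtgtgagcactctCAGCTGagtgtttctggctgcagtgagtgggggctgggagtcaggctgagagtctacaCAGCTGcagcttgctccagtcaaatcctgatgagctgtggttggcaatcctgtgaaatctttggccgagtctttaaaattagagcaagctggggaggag

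RefSeq windows were matched for 9 of the 10 genes, with Fbxw22 unmatched, and over the 36 pairs they were 84.7% to 97.3% identical (median 90.4%). CAGCTG was found in 9 of 9 windows, against 4271 of the 32851 windows of all genes. There were 2 copies in 8 windows and 1 copy in Fbxw20, 80 bases before its start. In Fbxw24 the copies began 159 and 101 bases before the start, and in Fbxw26 157 and 99 bases before it. Of the other motifs searched on both strands, CANNTG, which includes CAGCTG, was in 9 of 9 and in 66.2% of all windows. CACGTG was in 0 of 9 (6.02% of all windows), TATAAA in 0 (12.4%), TAATTG in 0 (7.17%) and TAATTA in 0 (4.84%). CCAAT was in 1, that of Fbxw16, against 33.8% of all windows. The windows descend from copies of one another and are not independent cases, and a match is a description of the letters only.

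The sequencing depth recovered from coverage and FPKM ran from 1.00 to 5.17 aligned gigabases per library, and 6177 to 11771 genes reached 1 TPM, the length-normalized abundance that StringTie scales to a fixed total per library. The summed TPM of reference genes came to 30.4% to 94.4% of that of the loci assembled without a gene name. These loci alone sum to the fixed total, and reference genes are listed beside them. The summed TPM of 8 cumulus markers was 1746 to 2950 in CC and 4.2 to 13.6 at 6 hpa, whereas that of 12 oocyte markers was 3.62 to 7.69 in CC, where 6 of them were at 0 in every library, and 8887 to 18515 at 6 hpa. TPM is a share of the library, so a fall of the transcript cannot be told apart from a rise of other RNA, nor fewer cells from less RNA per cell. Since RNA was captured by its polyadenylated tail, a change of amount cannot be told apart from a change of tail either.

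The first comparison set the level of the 10 genes in the reconstructed oocyte against that in the donor cell. The genes were at or near 0 in cumulus cells and very high 6 h after activation. In CC the summed TPM of all 10, the family sum, was 0.20, 0.094 and 0.00, and no gene reached 1 TPM in any library. At 6 hpa the family sum ran from 16461 to 29358 TPM with a median of 25514 and a mean of 24308 ± 4352 (SD, n = 6). That was 1.65% to 2.94% of the fixed total, to which the assembled loci alone sum, and 2.37% to 3.85% of the summed TPM of reference genes. With Fbxw13, Fbxw14 and Fbxw27 the sum came to 2.30% to 3.91% of the fixed total. Between 6 hpa and CC, 10 of 10 genes passed the test as higher, where a call needed an adjusted p under 0.05 in limma and at least a 2-fold difference on the log2(TPM + 1) scale. Over all 11169 genes tested 31.7% were called higher and 44.2% lower (75.9% in all). The largest adjusted p of the 10 was 3.0e-11 (limma, Fbxw26). No fold is given against a group listed at 0. The median log2 difference of all genes in this comparison was -0.53, and it was 0.26 between L2C and E2C, -0.33 between 4C and L2C, 0.25 between 8C and 6 hpa and 0.12 between E2C and 14 hpa, while the other comparisons stayed within 0.1.

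Fbxw24 was the most abundant of the 10 at 6 hpa. Its level ran from 7115 to 11329 TPM with a median of 10549 (10107 ± 1523, SD, n = 6), which placed it between rank 5 and rank 9 among all reference genes. Fbxw28 followed with 3743 to 9414 TPM, median 7241, rank 8 to 21. Fbxw24 was above Fbxw28 in 6 of 6 libraries although their ranges overlapped, and their shares of the family sum were 41.8% ± 2.6 and 27.3% ± 3.9 (SD, n = 6).

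A middle group held 6 genes. Fbxw19 had a mean of 1602 ± 344 TPM (range 1240 to 2201) and Fbxw22 a mean of 1601 ± 246 (1205 to 1957). Fbxw16 averaged 1152 ± 201 TPM, Fbxw15 1050 ± 131, Fbxw20 969 ± 167 and Fbxw18 753 ± 199 (SD, n = 6). Neighbours in this order overlapped, and Fbxw19 was above Fbxw22 in only 4 of 6 libraries, as Fbxw16 was above Fbxw15. The lowest 2 genes stood apart from the rest. Fbxw21 ran from 161 to 219 TPM with a mean of 191 ± 22.8, below every library's value of Fbxw18, and Fbxw26 from 107 to 182 TPM with a mean of 134 ± 26.3. Of the neighbouring genes that are not among the 10, Fbxw14 averaged 7438 ± 1035 TPM, Fbxw27 614 ± 54.3 and Fbxw13 36.0 ± 4.95. Of the 3 highest, Fbxw14 and Fbxw28 were neighbours, and Fbxw24 lay apart from them.

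**Figure D1:**
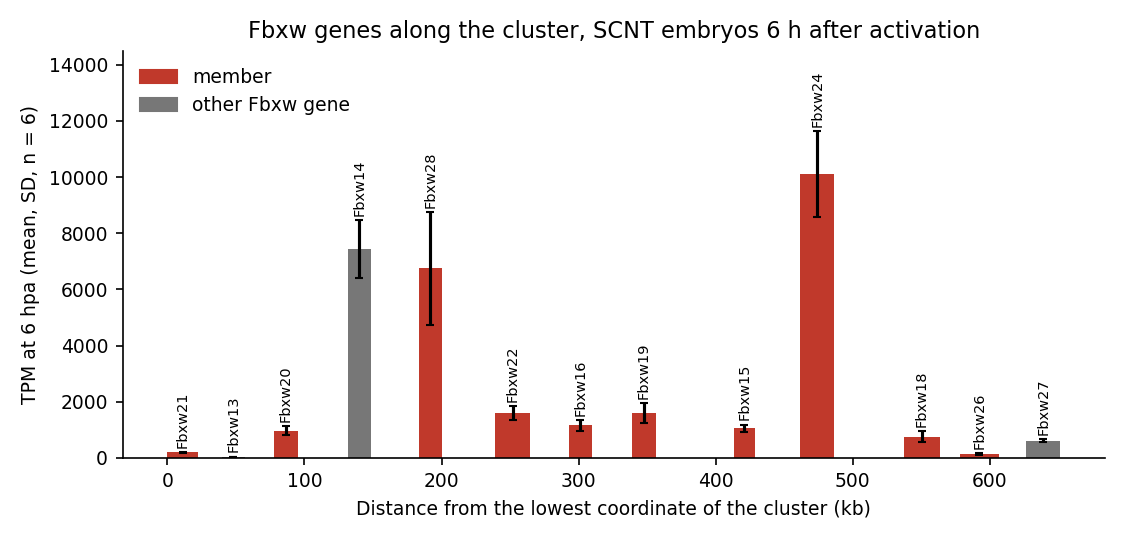
Mean TPM at 6 hpa (bars, with SD over 6 libraries) against distance in kb from the lowest coordinate of the cluster, each bar as wide as its gene; red bars are the 10 genes and grey bars Fbxw13, Fbxw14 and Fbxw27. Fbxw24 stands at 10107 TPM, Fbxw14 at 7438 and Fbxw28 at 6748, and every other gene is at 1602 or less.

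From 6 to 14 hpa, before the first cleavage, the family sum was 1.38 times lower on average and the genes differed in direction. The sum at 14 hpa was 11376 to 19925 TPM with a median of 19119 (17629 ± 3305, SD, n = 6), so that the ranges at the 2 times overlapped. Of the 10 genes 3 passed the test, 1 higher and 2 lower, against 11.1% of all 11867 genes tested (6.14% higher and 4.94% lower). The median log2 difference was -0.42 over the 10 genes and 0.01 over all genes.

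Fbxw26 rose. Its lowest, median and highest level were 107, 130 and 182 TPM at 6 hpa and 269, 419 and 440 TPM at 14 hpa. Every 14 hpa library was above every 6 hpa library, the log2 difference was 1.47 (SE 0.25) and the adjusted p was 2.1e-05 (limma). In replicates 1 to 3 alone the difference was 1.10 and the call was lost (adjusted p = 0.058, limma). It was still lower than Fbxw24 by a wide margin, with 2.16% ± 0.38 of the family sum at 14 hpa against 0.59% ± 0.26 at 6 hpa (SD, n = 6).

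Fbxw18 and Fbxw19 fell. Fbxw18 went from 510, 826 and 938 TPM (lowest, median, highest) at 6 hpa to 139, 318 and 355 TPM at 14 hpa, a log2 difference of -1.44 (SE 0.34, adjusted p = 0.0021, limma). Fbxw19 went from 1240, 1524 and 2201 TPM to 250, 663 and 871 TPM, a log2 difference of -1.43 (SE 0.36, adjusted p = 0.0032, limma). For neither gene did the libraries of the 2 times overlap. The difference of Fbxw19 was -0.97 with quantile normalization and -0.96 in replicates 4 to 6 alone, both short of the fold required. With a pseudocount of 0.1 neither gene passed.

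The other 7 genes did not pass. Fbxw28 had a log2 difference of -0.71 (SE 0.44, adjusted p = 0.38, limma) and Fbxw22 one of -0.60 (SE 0.29, adjusted p = 0.21, limma). Fbxw24 was at 5339, 8868 and 9335 TPM at 14 hpa, a log2 difference of -0.31 that turned to 0.06 with quantile normalization. Fbxw15 and Fbxw21 had means of 1177 and 202 TPM at 14 hpa, and their ranges overlapped those at 6 hpa.

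**Figure D2:**
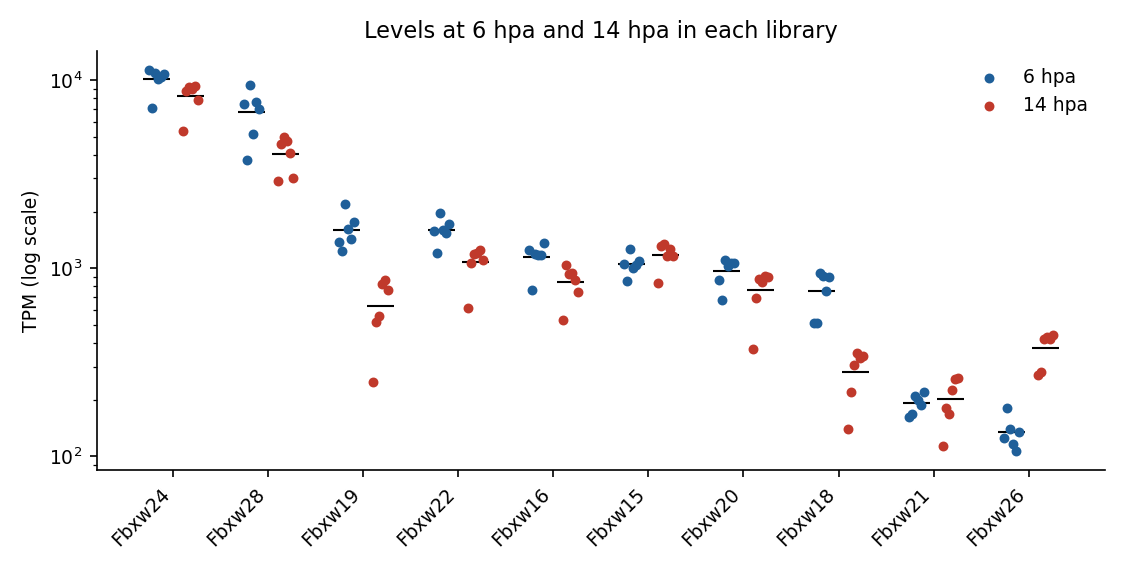
TPM on a log axis of each of the 10 genes in the 6 libraries at 6 hpa (blue) and the 6 at 14 hpa (red), with bars at the means, genes ordered by their mean at 6 hpa. The 2 times do not overlap for Fbxw19 and Fbxw18, lower at 14 hpa, and for Fbxw26, higher at 14 hpa.

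The early 2-cell libraries came in 2 sets by replicate number, which bears on every value of this stage. The family sum was 2006, 2037 and 2258 TPM in replicates 1 to 3 and 6791, 7129 and 6456 TPM in replicates 4 to 6, which is 3.23 times as high on average. Replicates 1 to 3 had 38321 to 39786 assembled loci and replicates 4 to 6 had 27871 to 28892. The summed cumulus markers were at 17.1 to 22.4 TPM in the first set and 1.65 to 4.49 TPM in the second, those of the oocyte at 5838 to 8838 and 8666 to 9126 TPM. The part of these in the results of this stage was not tested. The study's methods name 2 sequencing sites for the Smart-seq2 libraries, and neither they nor the labels tie libraries to them. The gap differed among the genes: replicates 4 to 6 were 4.68 times as high for Fbxw20, 4.56 for Fbxw28, 3.84 for Fbxw24 and 3.10 for Fbxw15, but 1.39 for Fbxw21 and 1.14 for Fbxw19. For the family sum, replicates 4 to 6 were 1.15 times as high at L2C, 1.12 at 14 hpa and 1.04 at 6 hpa. By gene, this factor ran from 0.95 (Fbxw28) to 1.85 (Fbxw19) at 14 hpa, and from 0.87 (Fbxw18) to 2.10 (Fbxw20) at L2C. The 2 sets did not overlap for Fbxw19 at 14 hpa (250 to 558 and 768 to 871 TPM). Nor did they for Fbxw20 at L2C (23.9 to 40.3 and 61.2 to 78.1 TPM).

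Between 14 hpa and E2C, which spans the first division, all 10 genes fell. The family sum at E2C ran from 2006 to 7129 TPM with a median of 4357, below every 14 hpa library. All 10 genes passed as lower, against 3.05% of all genes tested called lower (2.78% higher, 5.83% in all), and their log2 differences ran from -1.15 to -2.43 with a median of -2.08 (0.12 over all genes). Fbxw24 went to 719, 1789 and 3140 TPM (lowest, median, highest), a log2 difference of -2.43 (SE 0.42, adjusted p = 5.6e-05, limma). Fbxw26, higher in the step before, went to 40.0, 81.5 and 134 TPM, a log2 difference of -2.29 (SE 0.25, adjusted p = 7.0e-09, limma). The weakest call was Fbxw19, with -1.15 (SE 0.36, adjusted p = 0.036, limma), whose 14 hpa and E2C ranges overlapped and whose call was lost without any 1 of replicates 2 to 6. Without E2C replicates 1 to 3 the number called was 2, Fbxw22 and Fbxw26, and with a pseudocount of 0.1 it was 5. Within replicates 4 to 6 the family sum was still 2.74 times lower at E2C than at 14 hpa, and within replicates 1 to 3 it was 7.93 times lower, with no overlap in either set.

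From E2C to L2C the genes differed in size of change, although the differences between genes were not tested. Those called lower were 4 of 10, Fbxw20, Fbxw22, Fbxw26 and Fbxw28, and 11.2% of all genes were called lower (23.7% higher, 34.9% in all). Fbxw22 changed most. It was at 155, 158 and 145 TPM in E2C replicates 1 to 3, at 416, 455 and 403 TPM in replicates 4 to 6 and at 32.6 to 69.0 TPM at L2C. Every L2C library was below every E2C library of either set, with a log2 difference of -2.24 (SE 0.29, adjusted p = 1.9e-08, limma). Fbxw26 also showed no overlap, with 40.0 to 134 TPM at E2C and 15.9 to 33.7 TPM at L2C (log2 difference -1.60, SE 0.25, adjusted p = 1.2e-06, limma).

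The calls of Fbxw20 (-1.73, SE 0.43, adjusted p = 0.0011, limma) and Fbxw28 (-1.34, SE 0.44, adjusted p = 0.013, limma) were lost without the second E2C set, as was that of Fbxw26 (-0.98, short of the fold). Fbxw28 also lost its call with TPM rescaled over reference genes (adjusted p = 0.059, limma), with quantile normalization (-0.90, short of the fold) and with a pseudocount of 0.1 (adjusted p = 0.14, limma). Fbxw20 lost its call with that pseudocount too (adjusted p = 0.052, limma). In replicates 1 to 3 alone neither Fbxw20 nor Fbxw28 was called. Over all libraries the E2C and L2C ranges of both genes overlapped. Within replicates 1 to 3 those of Fbxw20 did not overlap (58.5 to 78.8 and 23.9 to 40.3 TPM), while those of Fbxw28 did. Within replicates 4 to 6 the ranges overlapped for neither gene. With E2C replicates 4 to 6 left out the number called was 1, that of Fbxw22, and with replicates 1 to 3 left out it was 8. Using replicates 1 to 3 alone it was 2 and using replicates 4 to 6 alone it was 8. Without any 1 of replicates 4, 5 and 6, Fbxw28 was no longer called, and without any 1 of replicates 1, 2 and 3, Fbxw24 was called as well.

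At the other end were Fbxw16 and Fbxw19. Fbxw16 was at 147 to 348 TPM at E2C and 85.5 to 238 TPM at L2C, a log2 difference of -0.34 (SE 0.43, adjusted p = 0.57, limma). Fbxw19 was at 224 to 303 TPM and 136 to 222 TPM, a log2 difference of -0.60 (SE 0.36, adjusted p = 0.18, limma), which changed little between the sets, with a ratio of the means of 1.5 in both. Its E2C and L2C ranges did not overlap either, though by a narrow margin. Fbxw24 fell just short of both limits, with a log2 difference of -1.0 (SE 0.42, adjusted p = 0.050, limma). As a result of the unequal changes, Fbxw22 made up 6.78% ± 0.75 of the family sum at E2C and 3.07% ± 1.06 at L2C, and Fbxw16 6.08% ± 1.62 and 9.87% ± 2.02 (SD, n = 6). Fbxw22, alike Fbxw19 in level at 6 hpa, was below Fbxw18 in 4 of 6 libraries at L2C.

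**Figure D3:**
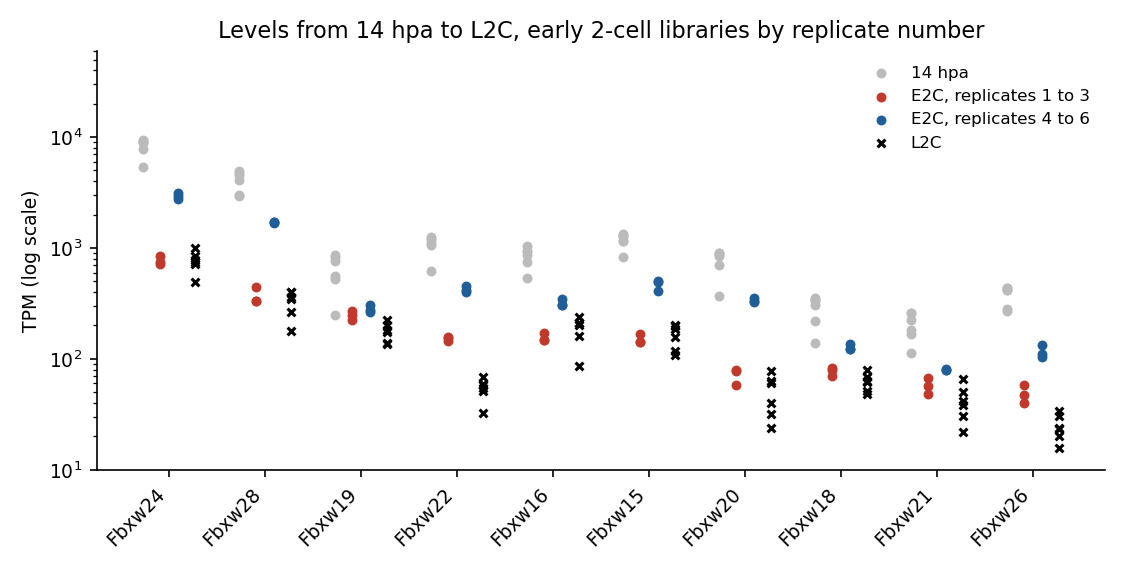
TPM on a log axis of the 10 genes in the libraries at 14 hpa (grey), E2C replicates 1 to 3 (red), E2C replicates 4 to 6 (blue) and L2C (crosses). The 2 E2C sets lie apart for Fbxw24 and Fbxw28 and close together for Fbxw19, and L2C lies below both sets for Fbxw22, Fbxw26 and, by a narrow margin, Fbxw19.

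From L2C to 4C all 10 genes fell. The family sum was 1209 to 2307 TPM at L2C (median 1940) and 202, 161, 98.1, 295 and 277 TPM in the 5 libraries at 4C, on average 8.93 times lower. All 10 genes passed as lower, against 26.6% of all genes (11.8% higher, 38.4% in all), with log2 differences from -2.45 (Fbxw22) to -4.14 (Fbxw19) and a median of -3.29, where all genes had -0.33. Fbxw24 was at 497 to 1002 TPM at L2C and at 85.3, 73.5, 45.9, 128 and 123 TPM at 4C (log2 difference -3.12, SE 0.44, adjusted p = 5.0e-08, limma). Fbxw19, not called in the step before, went to 3.81, 5.21, 7.17, 20.8 and 16.7 TPM (log2 difference -4.14, SE 0.37, adjusted p = 2.6e-13, limma). Fbxw22, with the largest difference from E2C to L2C, had the smallest from L2C to 4C, also as a ratio of the means (5.38). These steps share the L2C libraries, and no test was made of this order. Fbxw16 had a log2 difference of -3.84 that was -2.95 without replicate 3, the 4C library in which it was at 0.33 TPM, and -4.48 without replicate 1. Without replicate 3 Fbxw15 had -2.79 in place of -3.75, and Fbxw21 -2.78 in place of -3.37. The family sums of 4C replicates 1 to 3 were again lower than those of replicates 4 and 5, at 154 ± 52.2 (SD, n = 3) and 286 TPM on average, though not for every gene (Fbxw16 averaged 18.9 and 16.3 TPM). The summed TPM of reference genes came to 44.0% to 53.1% of that of the assembled loci in the first set and 73.5% to 75.6% in the second.

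At 8C the RNAs were almost gone. The family sum ran from 11.8 to 41.7 TPM with a median of 21.1, on average 9.36 times lower than at 4C with no overlap, and 2 to 5 of the 10 genes reached 1 TPM in a library. All 10 genes passed as lower than at 4C, against 8.23% of all genes (11.5% higher, 19.8% in all), with log2 differences from -1.58 to -3.31 and a median of -2.17 (0.04 over all genes). The 4C and 8C ranges did not overlap for Fbxw22, Fbxw24, Fbxw26 and Fbxw28, and they overlapped for the others of the 10. On the log2(TPM + 1) scale differences at such low levels are understated. Leaving out replicate 5 took away the calls of Fbxw15 and Fbxw20, and leaving out replicate 4 that of Fbxw15. Without replicate 3 the log2 differences were larger for Fbxw15 (-3.03 in place of -2.11) and Fbxw16 (-3.66 in place of -2.72). With only these 2 stages in the fit Fbxw15 and Fbxw20 were not called, and in replicates 1 to 3 alone Fbxw16 was not called either. The 4C library called replicate 5 here, after its label, is numbered 6 in the deposited file's own name. Fbxw24 still had the highest mean and was the highest of the 10 in 4 of 6 libraries, at 3.36, 8.11 and 21.7 TPM (lowest, median, highest), with a log2 difference of -3.28 to 4C (SE 0.44, adjusted p = 1.6e-07, limma). Fbxw26 reached 0.44 TPM at most, and Fbxw22 0.97 TPM.

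Over the whole course from 6 hpa to 8C the mean family sum went from 24308 to 22.1 ± 10.98 TPM (SD, n = 6). All 10 genes passed as lower, against 31.7% of all genes (36.5% higher, 68.2% in all), with log2 differences between -6.95 for Fbxw26 and -10.71 for Fbxw28, a median of -9.20 against 0.25 over all genes, and adjusted p between 2.5e-33 and 1.8e-21 (limma). Fbxw14, Fbxw27 and Fbxw13 passed as lower too, with -10.66, -8.40 and -4.93. Levels at 8C were near 0, so on the log2(TPM + 1) scale the size of a fall depends on the level at 6 hpa. As a ratio of the means, the falls of the 10 genes ran from 349 times for Fbxw15 to 4559 times for Fbxw22. That ratio was 1522 for Fbxw26 and 1657 for Fbxw28. The 8C means that it divides by were near 0 and uneven between libraries. They were 3.01 ± 3.70 TPM for Fbxw15 and 0.35 ± 0.43 TPM for Fbxw22 (SD, n = 6), each at 0 in 2 libraries. The order of the genes by this ratio is therefore uncertain. Up to 4C the mean share of Fbxw24 in the family sum stayed between 39.9% and 46.7%. It was 46.7% ± 0.79 at 14 hpa, 39.9% ± 3.8 at E2C, 41.5% ± 1.9 at L2C (SD, n = 6) and 44.5% ± 1.8 at 4C (SD, n = 5). At 8C, where levels were low, it ranged from 14.1% to 79.4% with a mean of 44.7% ± 23.7 (SD, n = 6). Fbxw28 had 27.3% ± 3.9 at 6 hpa and 17.4% ± 1.8 at L2C (SD, n = 6).

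**Figure D4:**
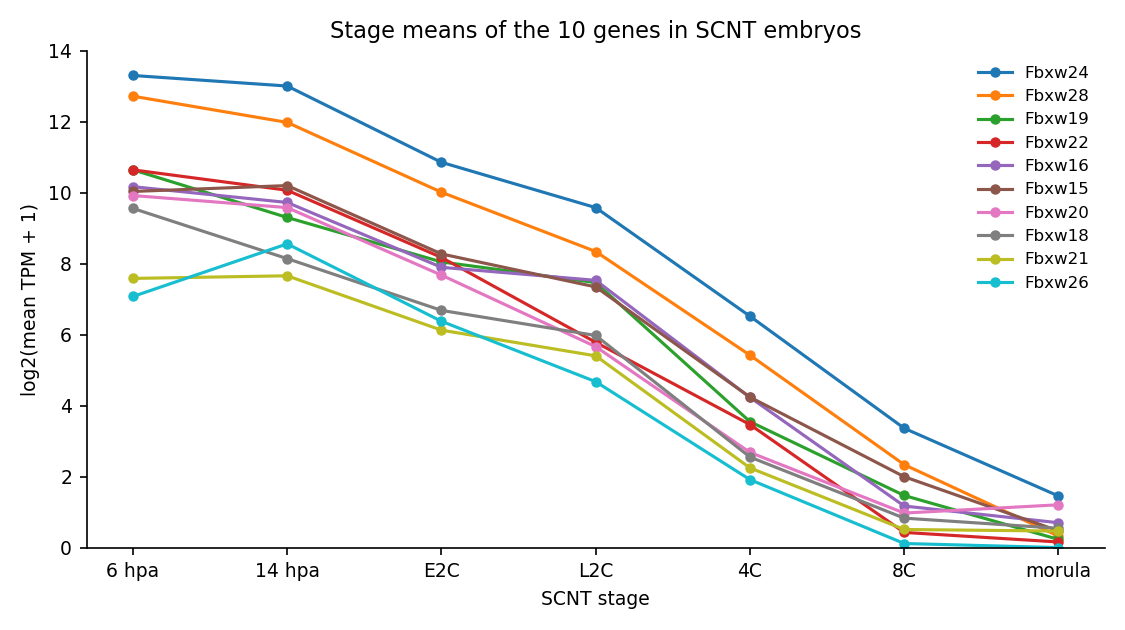
log2(mean TPM + 1) of the 10 genes at each SCNT stage from 6 hpa to morula, 1 line a gene. Fbxw24 has the highest mean at each stage shown, Fbxw26 rises between 6 and 14 hpa, and the line of Fbxw22 leaves those of Fbxw16 and Fbxw19 between E2C and L2C.

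In later embryos the genes were near the lower end of what the libraries could show. The family sum was 2.39 to 12.8 TPM in morulae (median 4.70), 1.64 to 18.6 TPM in the SCNT ICM (median 5.47) and 0.060 to 15.2 TPM in the SCNT TE (median 2.99). At most 4 of the 10 genes reached 1 TPM in any of these libraries. In both blastocyst parts the mean was higher in replicates 4 to 6, by a factor of 2.94 in the ICM and 15.6 in the TE, and these libraries were also the deeper ones, with 3.65 to 4.28 aligned gigabases against 2.15 to 2.66 in replicates 1 to 3. In the TE the 2 sets did not overlap. The part of depth in this gap was not tested. Fbxw24 led in the SCNT ICM with 0.93 to 12.97 TPM.

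In fertilized blastocysts, which had no SCNT step, the levels were also low. The family sum was 2.32 and 11.6 TPM in the control ICM and 0.00 and 0.36 TPM in the control TE. It was 0.34 and 0.39 TPM in the Max MO ICM and 1.09 and 2.67 TPM in the Mcrs1 MO ICM, and 0.78 and 0.86 TPM in the Max MO TE and 0.39 and 2.76 TPM in the Mcrs1 MO TE. With n = 2 and values near 0, no test was made between these groups.

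**Figure D5:**
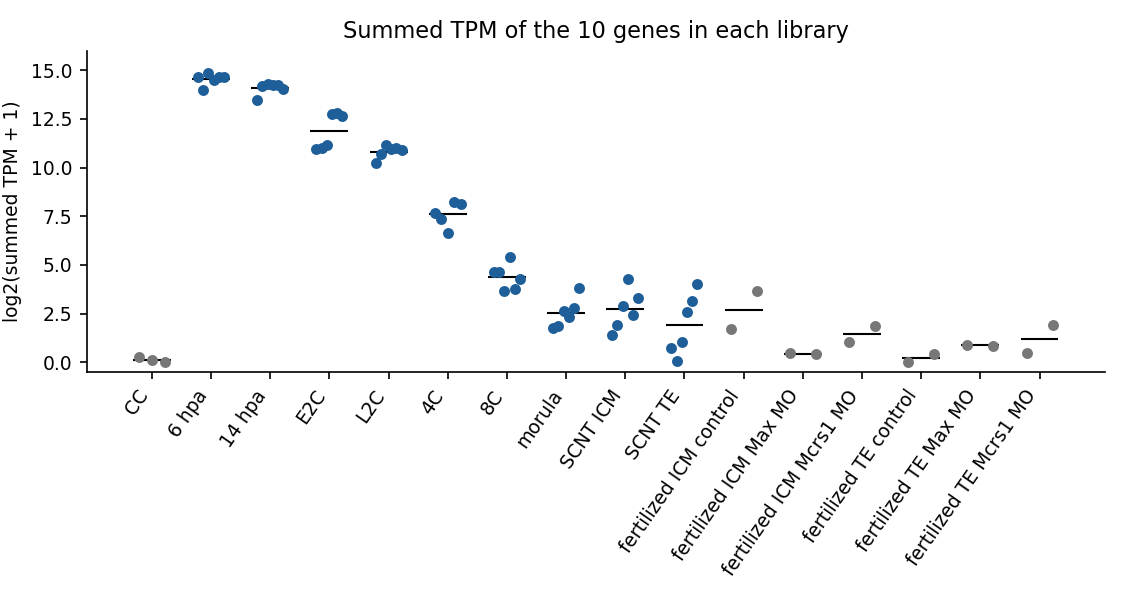
Family sum of the 10 genes as log2(summed TPM + 1) in each of the 68 libraries, by group, with bars at the mean of the log2 values (CC and fertilized embryos in grey, SCNT embryos in blue). The level is near 0 in CC, highest at 6 hpa, lower at each stage to 8C, and below 20 TPM in every morula and blastocyst library; the E2C libraries form 2 sets.

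Since the copies are similar, the sum over assembled loci of the minus strand, which does not depend on how reads were divided among gene models, was set beside the family sum. It was 27394 to 41192 TPM at 6 hpa, 15945 to 28833 at 14 hpa, 3069 to 9606 at E2C, 1766 to 3361 at L2C, 130 to 389 at 4C and 19.4 to 51.5 at 8C, and 0.00 in every CC library. It also takes in Fbxw13, Fbxw14 and unnamed loci, and from 6 hpa to 8C its stage medians were above those of the family sum. It had the same order of stage medians.

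The genes most like the family sum over the 53 SCNT libraries, by Pearson's r of log2(TPM + 1), were Fbxw14 (r = 0.993), Oosp2 (0.980), Oosp3 (0.980), Rgs2 (0.978) and Nlrp5 (0.977). Over the 9 stage means the values were 0.997, 0.992, 0.987, 0.992 and 0.988. Fbxw14 shares read-length windows with Fbxw28, so reads divided between them may enter both sides of its r. Oosp2 and Oosp3 encode oocyte-secreted proteins, Rgs2 a regulator of G-protein signalling and Nlrp5 a maternal protein of the subcortical complex. Oosp2 was at a mean of 774 TPM at 6 hpa, 1001 at 14 hpa, 344 at E2C, 96.9 at L2C, 13.9 at 4C and 0.85 at 8C. Such a pattern was common, since 608 of the 11857 other genes had r above 0.9, and all libraries of a stage share that stage's level. Among the 10, the correlation with the sum of the other 9 ran from 0.962 (Fbxw20) to 0.991 (Fbxw24).

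The partners of F-box proteins went both ways. Of 15 listed core subunits and regulators of SCF ligases 14 were in the tables and tested, Skp1a standing for Skp1. At 8C against 6 hpa 3 were called higher and 7 lower, with a median log2 difference of -0.79, beside 36.5% and 31.7% of all genes. The adaptor Skp1a averaged 1176 TPM at 6 hpa and 451 at 8C (log2 difference -1.38, SE 0.17, adjusted p = 2.3e-10, limma). Cul1, the scaffold, went from 895 to 77.2 TPM (-3.53, SE 0.26, adjusted p = 3.4e-17, limma) and Rbx1, the RING subunit, from 673 to 301 TPM (-1.17, SE 0.17, adjusted p = 2.8e-08, limma). The largest fall in the list was that of Dcun1d1, which promotes cullin neddylation, at -5.32, and the largest rises were those of Cops5, the deneddylase subunit of the COP9 signalosome, at 3.67 and of Ube2m, the NEDD8-conjugating enzyme, at 2.35. Every one of the 10 cluster genes had a larger fall on the log2(TPM + 1) scale than any gene of this list, whose range was -5.32 to 3.67. On that scale the size of a fall to near 0 depends on the starting level.

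In the steps between, the SCF list had 2 called higher and 1 lower of 14 at 14 hpa against 6 hpa, 0 of 14 at E2C against 14 hpa (limma, with 3 at an unadjusted p under 0.05), where all 10 cluster genes were called lower, 3 lower at L2C, 3 higher and 6 lower at 4C and 1 in each direction at 8C, each against the stage before. Over all genes the shares called in these 5 steps were 11.1%, 5.83%, 34.9%, 38.4% and 19.8%. At 6 hpa against CC it had 7 higher and 4 lower, where 75.9% of all genes were called.

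F-box genes outside the cluster were also called in both directions. Of 16 listed, 14 were tested, and at 8C against 6 hpa 6 were called higher and 5 lower, with a median log2 difference of -0.16, beside 36.5% higher and 31.7% lower over all genes. Fbxo15, known as a target of OCT4 in pluripotent cells, went from a mean of 30.5 to 1612 TPM (5.70, SE 0.29, adjusted p = 8.4e-24, limma), and Fbxw9 had 3.39. Fbxw4 went from 125 to 0.15 TPM (-6.65, SE 0.52, adjusted p = 1.2e-16, limma), and Fbxo43, the meiotic inhibitor of the anaphase-promoting complex also called EMI2, from 64.6 to 0.13 TPM (-5.88, SE 0.29, adjusted p = 2.5e-24, limma). The numbers called higher and lower were 6 and 3 at 6 hpa against CC, 0 and 1 at 14 hpa, 1 and 0 at E2C, 4 and 1 at L2C, 1 and 3 at 4C and 2 and 2 at 8C, each of the last 5 against the stage before, to be read against the same shares.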

How the data were processed

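Smart-seq2 libraries had been sequenced as paired 150-base reads, trimmed with cutadapt 1.16, aligned to mm10 with HISAT2 and quantified with StringTie by the authors. Of each library, the authors deposited the coverage signal, FPKM and TPM per gene. The deposited TPM signal sums to 1000000 over loci assembled in that library, and reference genes are listed beside these on the same scale, so TPM here is treated as a normalized signal and not as counts. Library depth in aligned bases was computed from deposited coverage and FPKM. The authors' methods name DESeq2, which needs counts and was not used.

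TPM was summed per gene symbol; each of the 10 genes was on 1 row of each table. Genes with a mean of at least 1 TPM over the libraries fitted were tested on log2(TPM + 1) with limma 3.58.1 (R 4.3.3), empirical Bayes with trend: 11867 genes over the 53 SCNT libraries in 1 fit of 9 stages, and 11169 over CC and 6 hpa. Benjamini-Hochberg adjustment ran over all genes of a comparison. Tests were 2-sided. On simulated data for 14 hpa against 6 hpa, among 11867 genes, 98 of 100 genes changed by a log2 difference of 3 and 50 of 100 changed by 1.5 were recovered, with 9 false calls. Between 6 and 14 hpa the deviations of same-numbered libraries correlated in all 6 pairs (lowest r 0.14), and the labels give no reason. Of the 6, 2 correlated best with their own number, so this check does not settle whether the numbers mark a pairing.

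The 10 genes and the gene lists were chosen with earlier results of these data known. Named genes were the 10, other Fbxw genes of the span, the 5 genes most correlated with the family sum, and the called SCF and F-box genes with the 2 largest rises and falls at 8C against 6 hpa, with Skp1a, Cul1 and Rbx1. The family sum and the correlations are descriptions with no test. Promoter windows came from RefSeq (GRCm38.p6) and transcripts from GENCODE vM21; the global alignment identity counts aligned bases only. Alternatives were another pseudocount and filter, 2 other scalings, the largest row per gene, 2 stages only, replicate subsets, a replicate block and leaving out each replicate; leaving out either set of E2C replicates and the sum over assembled loci were added after the data had been seen.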

Additional observations from a re-analysis of the deposited data

Results flagged for a closer look

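In 9 of 69 gene and stage groups checked, 1 library stood far from the others, where chance gives about 1 in 20. At 14 hpa replicate 1 was low for the family sum (11376 TPM, others 16551 to 19925), Fbxw15 (832 TPM, others 1161 to 1341), Fbxw20 (371 TPM, others 696 to 910), Fbxw22 (617 TPM, others 1072 to 1245) and Fbxw24 (5339 TPM, others 7811 to 9335). These genes share that library. At 6 hpa replicate 2 was low for Fbxw16 (768 TPM, others 1171 to 1360) and Fbxw24 (7115 TPM, others 10162 to 11329). At 4C replicate 3 was low for Fbxw16 (0.33 TPM, others 15.9 to 40.1) and replicate 5 high for Fbxw26 (5.70 TPM, others 1.85 to 2.51). The 3 calls at 14 hpa against 6 hpa stayed 3 without replicate 1 and without replicate 2.

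Loci assembled without a gene name held signal at 2 further Fbxw genes of the cluster that have no reference row in the tables. At Fbxw23 (chr9:109516398-109543189, RefSeq, GRCm38.p6) 3 of 6 libraries at 6 hpa had a locus of its own, within 500 bases of the gene's ends, with a median of 374 TPM, and 5 of 6 at 14 hpa had 285 to 485 TPM. At Fbxw25 (chr9:109645014-109665347) 5 of 6 libraries at 6 hpa had a median of 165 TPM. No CC library had a locus at either gene. At Fbxw23 the loci were at 324 to 391 TPM in 3 of 6 libraries at E2C and 243 to 298 TPM in 2 of 6 at L2C. At Fbxw25 they were at 27.2 to 75.0 TPM at E2C and 6.07 to 42.6 TPM at L2C, in 6 of 6 libraries each. At 4C the loci were at 3.20 to 19.9 TPM at Fbxw23 and 0.86 to 7.38 TPM at Fbxw25. In the remaining libraries the assembly joined these genes to neighbours or gave no locus, so stages were not compared.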

How the results depend on the processing

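Of 114 recomputed counts of called genes, 106 stayed within 1.5 times. With a pseudocount of 0.1 the count fell from 3 to 1 at 14 hpa against 6 hpa, from 10 to 5 at E2C against 14 hpa and from 4 to 2 at L2C against E2C. With E2C replicates 1 to 3 left out, E2C against 14 hpa gave 2 and L2C against E2C gave 8. With E2C replicates 4 to 6 left out, L2C against E2C gave 1. Using replicates 1 to 3 only it gave 2, and using replicates 4 to 6 only it gave 8. The cause of these changes was not tested. Leaving out 1 replicate at a time gave 3 to 5 at L2C against E2C, 8 to 10 at 8C against 4C and 9 to 10 at E2C against 14 hpa.

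The direction of 4 gene differences turned, none of them called. Fbxw21 at 14 hpa against 6 hpa, 0.03, became -0.24 in replicates 1 to 3 only and ran from -0.058 to 0.13 when 1 replicate at a time was left out, negative without replicate 4, 5 or 6, and Fbxw24 in that comparison became 0.058 with quantile normalization. At L2C against E2C, Fbxw15 became 0.061 and Fbxw16 0.18 without E2C replicates 4 to 6, and Fbxw16 became 0.065 in replicates 1 to 3 only. With the replicate block, the counts were 10 at 6 hpa against CC, 3 at 14 hpa, 10 at E2C, 4 at L2C, 10 at 4C, 10 at 8C against 4C and 10 at 8C against 6 hpa, so the block changed no count. Outside 14 hpa against 6 hpa, the lowest r of same-numbered libraries was between -0.15 and 0.03. Best correlated with their own number were 1 of 3 libraries at 6 hpa against CC, 3 of 5 at 8C against 4C and 2 of 5 at 4C against L2C. In each of the other comparisons, 14 hpa against 6 hpa among them, it was 2 of 6. A shared number was not taken as a pairing, although this check cannot exclude one. The TPM values carry no read counts, so counting error is unknown, and values near 1 TPM at 8C and later limit what could be seen.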
